A study of Mus musculus with 13 samples.

Results

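The genes described here encode the machinery that sets the acidity and ion content of lysosomes and endosomes. They are the subunits of the vacuolar proton pump (V-ATPase), its assembly and regulatory factors, and the channels and exchangers of the same membranes. The 34 genes were taken by symbol from a named list, and all 34 were found among the 36287 genes of the deposited table. All 34 also passed the filter on low counts, which left 22065 genes for testing. The libraries were made from whole hippocampus with oligo(dT) beads, which capture polyadenylated RNA, and were sequenced in bulk. Every animal of all 3 groups was a 5xFAD mouse, with transgenes that encode human amyloid precursor protein and presenilin 1 with familial Alzheimer's disease mutations, and none of the groups is wild type. The saline group has 4 libraries (numbered 18, 19, 32 and 38). Aducanumab, an antibody against amyloid plaques, was given to 4 animals (24, 50, 56 and 58), and the ACLP-NT group has 5 (17, 27, 49, 53 and 55). ACLP-NT is known here by its code name and by the study's title, which speaks of a nanomedicine meant to restore lysosomal homeostasis in microglia. The sources used here do not give age, sex, dose or length of treatment.

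The V-ATPase is a rotary motor. Its cytosolic V1 sector hydrolyses ATP and turns a central stalk, and this turns a ring of proteolipid subunits in the membrane-embedded V0 sector, which carries protons into the lumen. Chloride-proton exchangers and cation channels balance the charge that the pump moves, and they also release calcium and set the luminal chloride. In neurons the same pump fills synaptic vesicles, whereas in microglia and other phagocytes it drives the degradation of engulfed material.

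Total counts ran from 53642019 to 69734713 per library. The 11 markers of hippocampal subfields were all above 0 in every library, with a summed level of 808 to 1202 CPM, the read count scaled to a common library total. Markers of the choroid plexus, the epithelium of the brain ventricles, differed within every group. Their summed level was 253.7 to 7813 CPM in saline, 292.7 to 8119 CPM in Aducanumab and 293.6 to 7769 CPM in ACLP-NT. Microglia markers, of which 15 of 16 are in the table, summed to 1683 to 2060 CPM in saline, 1371 to 1764 CPM in Aducanumab and 1104 to 1718 CPM in ACLP-NT. Neuron markers summed to 10090 to 11610, 9949 to 12230 and 10520 to 11750 CPM in the same order. Both comparisons with saline use the same 4 saline libraries.

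Sequences are shown first for the promoters that hold a lysosomal regulatory motif, since the channel gene Mcoln1, described below, is among them. TCACGTGA is the centre of the CLEAR element, the motif through which the transcription factor TFEB and its relatives act on lysosomal genes. It reads the same on both strands and contains the shorter E-box CACGTG. Of the 34 genes, 24 were matched to 32 promoter windows of RefSeq (build GRCm38.p6), each with 250 bases before and 50 after a start site. TCACGTGA occurred in 6 of the 32 windows, those of Atp6v0d1, Atp6v0e, Atp6v1a, Clcn6, Clcn7 and Mcoln1, against 0.974% of 32851 mouse windows of the same length. CACGTG occurred in 7 of the 32, the same 6 genes and Atp6v0b, against 7.15% of all windows. The 250 bases before the start are given for the 3 genes in which the longer motif lies wholly there, 5′ to 3′ on the strand of the gene, with TCACGTGA in capitals.
Mcoln1 (chr8:3500269-3500518, plus strand): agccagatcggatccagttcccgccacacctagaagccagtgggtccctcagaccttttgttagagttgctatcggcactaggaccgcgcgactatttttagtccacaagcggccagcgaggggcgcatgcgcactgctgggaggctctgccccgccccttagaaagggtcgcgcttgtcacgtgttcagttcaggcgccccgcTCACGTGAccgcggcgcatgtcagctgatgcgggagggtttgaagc
Clcn6 (chr4:148038814-148039063, minus strand): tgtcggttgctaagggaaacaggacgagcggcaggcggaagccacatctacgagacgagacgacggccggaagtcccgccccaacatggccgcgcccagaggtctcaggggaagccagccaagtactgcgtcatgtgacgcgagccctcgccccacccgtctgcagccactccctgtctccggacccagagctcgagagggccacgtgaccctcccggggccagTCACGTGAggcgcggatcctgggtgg
Atp6v1a (chr16:44139260-44139509, minus strand): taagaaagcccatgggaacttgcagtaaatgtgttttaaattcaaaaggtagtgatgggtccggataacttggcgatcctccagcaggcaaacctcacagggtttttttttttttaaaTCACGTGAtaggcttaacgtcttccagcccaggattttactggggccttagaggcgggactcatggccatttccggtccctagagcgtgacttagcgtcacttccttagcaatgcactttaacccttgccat
The motif began 46 bases before the start in Mcoln1, 26 in Clcn6 and 132 in Atp6v1a. In the Mcoln1 and Clcn6 windows a further CACGTG, in lower case here, began 71 and 48 bases before the start. These are matches of letters, and binding at them was not measured.

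Levels of different genes were compared as FPKM, fragments per kilobase scaled to library size, which corrects for gene length. In saline hippocampus the pump was abundant and its subunits covered a wide range. The proteolipid Atp6v0c, which forms most of the rotating ring, was highest at 148 ± 6.36 FPKM (SD, n = 4), above 99.3% of tested genes. It was followed by Atp6v1g2, a peripheral stalk subunit, at 133 ± 8.55 FPKM, by the small membrane subunit Atp6v0e2 at 124 ± 10.2 FPKM and by the nucleotide-binding subunit Atp6v1b2 at 105 ± 6.63 FPKM. The ranges of neighbours in this order overlapped down to Atp6v0b, the 10th gene, at 65.8 ± 3.2 FPKM. Atp6v0c may also hold reads of a processed copy, Atp6v0c-ps2, which has a mean count of 2220 of its own.

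The V0 genes had a median of 65.8 FPKM, the V1 genes 42.4 FPKM, the accessory and assembly genes 19.0 FPKM, the chloride-proton exchangers and Ostm1 9.05 FPKM, and the cation channels and exchangers 6.09 FPKM. Among the exchangers Clcn6, a neuronal late endosomal protein, was highest at 15.2 ± 1.63 FPKM. Clcn7, the lysosomal exchanger, stood at 12.4 ± 0.295 FPKM beside 7.43 ± 0.519 FPKM for Ostm1, the subunit that stabilises it. Mcoln1, which encodes the lysosomal calcium release channel TRPML1, led the cation channels at 10.1 ± 0.562 FPKM. It was followed by Tmem175, a lysosomal potassium and proton channel, at 8.17 ± 0.228 FPKM, and by the channel gene Tpcn1 at 6.09 ± 0.292 FPKM. The endosomal sodium-proton exchanger Slc9a9 had 3.12 ± 0.283 FPKM, and Tpcn2 and Clcn5 were lower at 1.31 ± 0.25 and 0.938 ± 0.126 FPKM.

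Atp6v0d2, the d subunit known from osteoclasts and macrophages, was the lowest of the 34. It had 24, 10, 41 and 8 counts in saline 18, 19, 32 and 38, then 24, 31, 18 and 14 counts in Aducanumab 24, 50, 56 and 58, and 16, 9, 43, 0 and 20 counts in ACLP-NT 17, 27, 49, 53 and 55. The groups overlapped over nearly their whole range, and at this depth the 95% interval of its fold change between ACLP-NT and saline ran from 0.277 to 2.60. No difference in this gene was detectable.

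**Figure D1:**
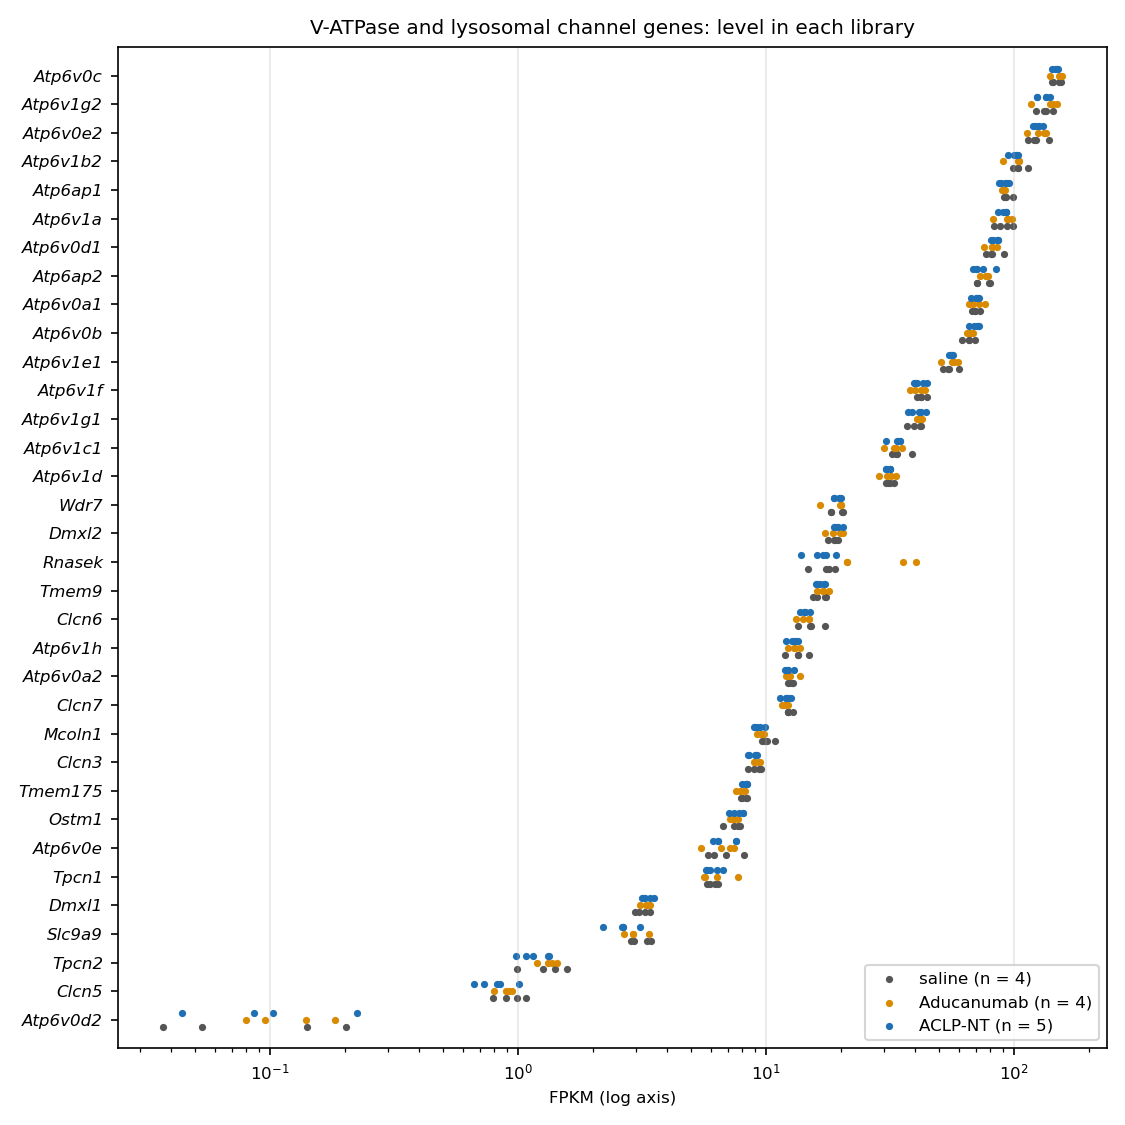
Level of each of the 34 genes (rows, from highest to lowest in saline) in FPKM on a log axis, 1 point per library, coloured by treatment. The points of the 3 groups lie on top of each other for nearly every gene, and Rnasek in Aducanumab (21.2 to 40.2 FPKM) is the exception; Atp6v0d2 in ACLP-NT 53, listed at 0, cannot be drawn.

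Paralogous subunits occur in very unequal amounts. In every library Atp6v0e2 exceeded Atp6v0e by 14- to 23.7-fold (median 19.7) and Atp6v1g2 exceeded Atp6v1g1 by 2.81- to 3.72-fold. The a subunit Atp6v0a1, the isoform of synaptic vesicles, exceeded Atp6v0a2, known from the Golgi and early endosomes, so that the a2 to a1 ratio was 0.158 to 0.21. Dmxl1 reached 0.151 to 0.198 of Dmxl2, its brain-enriched paralogue in the assembly complex, and Tpcn2 reached 0.165 to 0.252 of Tpcn1. The ratio of Atp6v0d2 to Atp6v0d1 was at most 0.00278. Exact two-sided permutation tests of the log2 ratio gave an adjusted p of 1 for each of 15 comparisons (5 ratios, 3 pairs of groups, Atp6v0d2 left out for its 0). Among them, the unadjusted p nearest to the threshold was 0.246, for Tpcn2 to Tpcn1 in ACLP-NT against saline. The smallest p these group sizes allow is 0.00794 with 5 against 4 libraries and 0.0286 with 4 against 4.

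**Figure D2:**
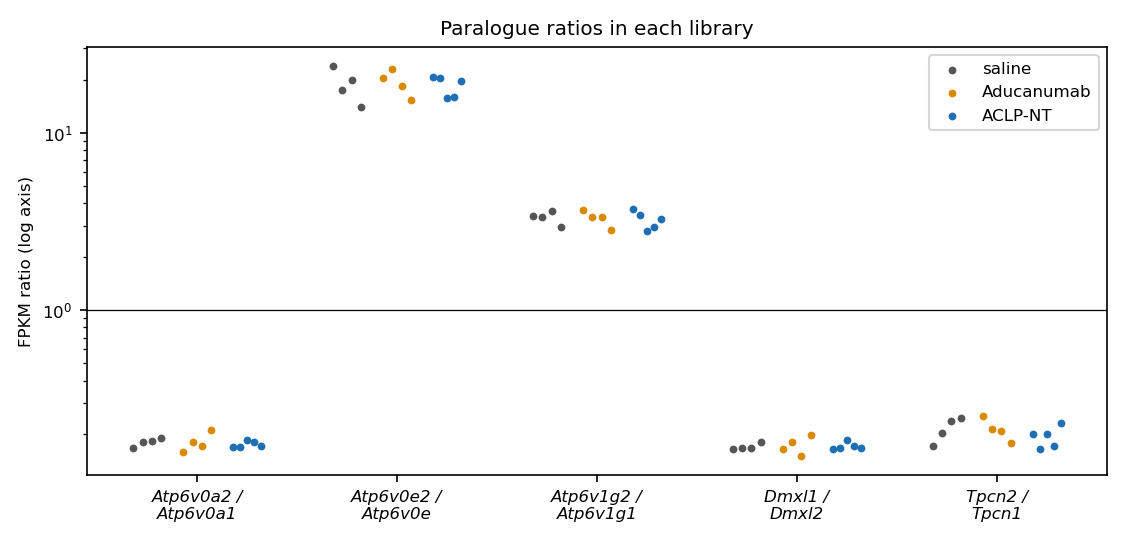
FPKM ratio of paralogous members (log axis), 1 point per library, by treatment; the line marks equal levels. Atp6v0e2 stands 14 to 23.7 times above Atp6v0e, and the 3 groups overlap for each of the 5 ratios.

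In ACLP-NT against saline, the levels of the pump and channel genes differed little. The edgeR quasi-likelihood test called 0 of the 34 genes at an adjusted p of 0.05, beside 0% of all 22065 genes. At an unadjusted p of 0.05, 1 gene was higher and 2 were lower, 3 of 34, beside 5.88% of all genes. No gene of the 34 had groups that did not overlap, beside 2.26% of all genes. The fold change was below 1 for 19 of 34, beside 50.6% of all genes, and the median log2 fold change was -0.019 beside -0.0015 over all genes. For 29 of the 34 genes the 95% interval lay within a 1.25-fold change either way. The other 5 were Atp6v0d2, Rnasek, Clcn5, Tpcn2 and Slc9a9.

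In the V0 sector, the proteolipid gene Atp6v0b (chr4:117741523-117744530 in the deposited table, whose build is not given) was the 1 gene with a higher value. It had 136, 146, 147 and 152 CPM in saline 18, 19, 32 and 38 and 160, 159, 144, 156 and 153 CPM in ACLP-NT 17, 27, 49, 53 and 55. Of the ACLP-NT libraries, 49 fell inside the saline range and the other 4 were above it. The log2 fold change was 0.088 (SE 0.0408, edgeR adjusted p = 0.839), and without saline 18, its lowest library, it was 0.059. The Aducanumab libraries had 144 to 151 CPM, a log2 fold change of 0.014 (SE 0.043) from saline. The other V0 genes ranged from -0.24 (Atp6v0d2) to 0.028 (Atp6v0d1).

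All 9 V1 genes lay between -0.064 (Atp6v1h, a regulatory subunit that holds the sectors together) and 0.024 (Atp6v1g1) on the log2 scale, 3 above 0 and 6 below. Atp6v1a, the catalytic subunit that hydrolyses ATP, had 593 ± 19.3 CPM in ACLP-NT and 591 ± 48.1 CPM in saline, a log2 difference of 0.0045 with a 95% interval from -0.13 to 0.14. Its nucleotide-binding partner Atp6v1b2 had 576 ± 22.4 and 601 ± 40.2 CPM (log2 fold change -0.059, interval -0.19 to 0.07). Of the stalk subunits, Atp6v1c1, Atp6v1d and Atp6v1f had -0.042, -0.014 and -0.03. The interval of each V1 gene included 0. For Atp6v1e1 and Atp6v1h, opposite-strand neighbours with 22.6% and 12.4% of their counts (Slc25a18 and Rgs20) add uncertainty, because the sources used here do not say whether counting used the strand.

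The 6 accessory and assembly genes lay between -0.036 and 0.065. Dmxl1 and Dmxl2, subunits of the rabconnectin complex that joins V1 to V0, stood at a log2 fold change of 0.065 (SE 0.0445) for the first and 0.05 (SE 0.0555) for the second. Their partner Wdr7 had 0.01 (SE 0.0634), and Tmem9, an endolysosomal membrane protein, 0.0018 (SE 0.0489). Wdr7 overlaps Txnl1 on the opposite strand, which has 26.9% of its count. Atp6ap1, which guides assembly of the V0 sector, had -0.036 (SE 0.0375), and Atp6ap2, known as the prorenin receptor, had -0.029 (SE 0.0564).

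Among the exchangers, Clcn7 had 69.6, 70.1, 73.5 and 68.9 CPM in saline 18, 19, 32 and 38 and 68.5, 70.5, 70.7, 68.3 and 65.3 CPM in ACLP-NT 17, 27, 49, 53 and 55. The groups overlapped, and the log2 fold change was -0.038 (SE 0.0381). Ostm1 had 0.047 (SE 0.0519). Clcn6 and Clcn3, exchangers of late endosomes and of endosomes, had -0.082 (SE 0.066) and -0.028 (SE 0.043). Clcn5, an exchanger of early endosomes, had -0.20 (SE 0.118) at 10.1 ± 1.52 against 11.6 ± 1.48 CPM.

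The 2 genes lower at an unadjusted p of 0.05, Mcoln1 and Slc9a9, are both in the group of cation channels and exchangers. Over all 22065 tested genes, 756 were lower at that p. Mcoln1 (chr8:3550457-3565232 in the deposited table) had 89.1, 82.3, 81.2 and 77.4 CPM in saline 18, 19, 32 and 38. It had 72.8, 81.3, 72.4, 74.8 and 77.5 CPM in ACLP-NT 17, 27, 49, 53 and 55. Saline 18 was the highest of all 13 libraries, and the groups overlapped between 77.4 and 81.3 CPM. The log2 fold change was -0.12 (SE 0.0466, edgeR adjusted p = 0.776), and without saline 18 it was -0.084. In Aducanumab the 4 libraries had 78.4, 78.1, 75.5 and 78.6 CPM, a log2 fold change of -0.087 (SE 0.0492, edgeR adjusted p = 1) from saline and of -0.049 without saline 18.

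Slc9a9 (chr9:94551962-95112498 in the deposited table) encodes NHE9, which exchanges protons for sodium or potassium across the endosomal membrane. It had 20.2, 17.4, 21.1 and 17.7 CPM in saline 18, 19, 32 and 38 and 16.1, 16.4, 15.9, 13.4 and 19.1 CPM in ACLP-NT 17, 27, 49, 53 and 55. Only ACLP-NT 55 lay inside the saline range, and the other 4 were below it. The log2 fold change was -0.24 (SE 0.0994, edgeR adjusted p = 0.796). Over the 13 libraries Slc9a9 went with the microglia marker level at r = 0.649 (rho = 0.571, permutation p = 0.0165, adjusted p = 0.0684 over 68 relations; rho p = 0.0458, adjusted p = 0.189). Without the 2 libraries farthest from the median of that level r was 0.452 (adjusted permutation p = 0.51). The microglia marker level was itself lower in ACLP-NT, with all 15 of its tested genes below saline. Their median log2 fold change was -0.38, and their smallest edgeR adjusted p was 0.722. In Aducanumab all 15 were also below saline, with a median of -0.27, and Slc9a9 had -0.074 (SE 0.105). With the microglia marker level as a covariate, the log2 fold change between ACLP-NT and saline was -0.11 (SE 0.121) for Slc9a9. That of Mcoln1 was -0.18 (SE 0.0574). In bulk tissue, fewer cells of a type and less RNA per cell cannot be told apart.

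Tmem175 varied least of the 34 genes, with a coefficient of variation of 2.89% over the 13 libraries. It had 53.3, 53.8, 51.0 and 50.6 CPM in saline and 51.1, 53.5, 52.7, 53.7 and 53.2 CPM in ACLP-NT. The groups shared nearly the same range (log2 fold change 0.018, SE 0.0375). The opposite-strand gene Dgkq has 90.7% of its count, so the value rests on how reads from the shared stretch were assigned. Tpcn1 encodes a cation channel of endolysosomes, and its log2 fold change was 0.0032 (SE 0.079). Its paralogue Tpcn2 had -0.16 (SE 0.133), and between -0.27 without saline 18 and -0.065 without saline 38. With the microglia marker level as a covariate its value was 0.091 (SE 0.142), and its r of 0.661 with that level was the highest of the 34 (adjusted permutation p = 0.0646).

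Among the 6 genes with TCACGTGA in a promoter window, the log2 fold change between ACLP-NT and saline ran from -0.12 (Mcoln1) to 0.028 (Atp6v0d1), with a median of -0.017 and 3 of 6 below 0. Between Aducanumab and saline it ran from -0.088 to 0.02, with a median of -0.041 and 5 of 6 below 0. Between ACLP-NT and Aducanumab the 6 genes had a median of 0.011, with 2 below 0. For all 34 genes the medians in the same order were -0.019, 0.014 and -0.0097, with 19, 16 and 20 below 0. Of all tested genes, 50.6%, 48.7% and 52.4% were below 0.

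**Figure D3:**
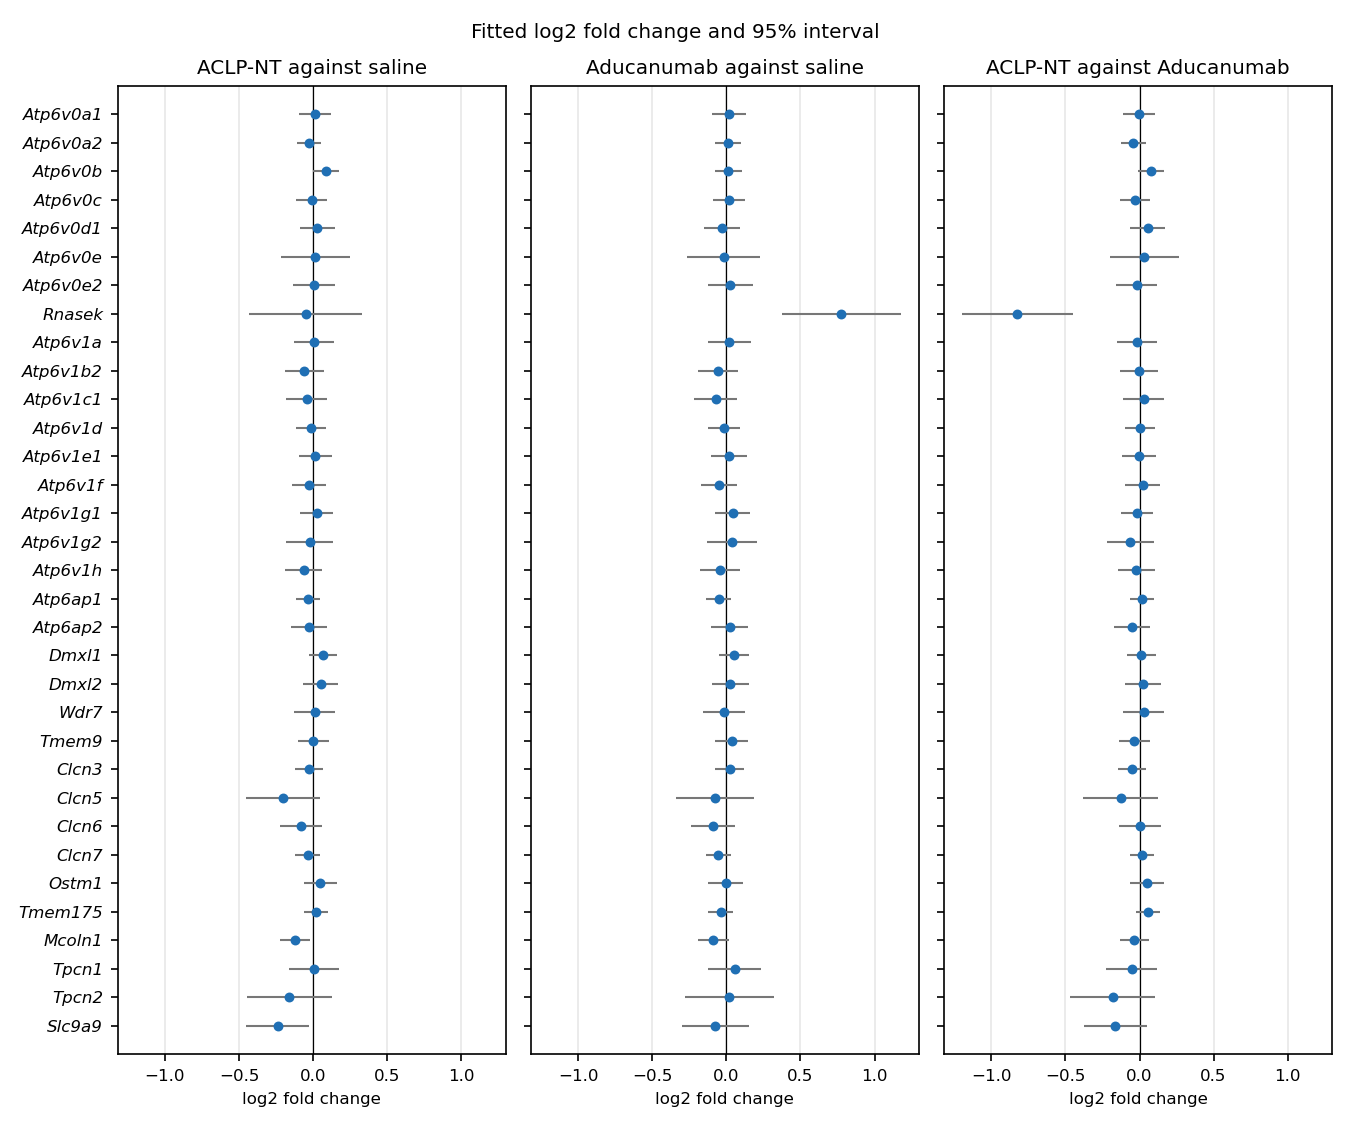
Log2 fold change (points) and 95% interval (lines) of the pump and channel genes in each of the 3 comparisons, in the order V0, V1, accessory, exchangers and cation channels. Nearly every interval includes 0 and Rnasek alone stands far from it, at 0.77 and -0.82 in the comparisons with Aducanumab; Atp6v0d2, whose intervals exceed the axis, is not drawn.

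In Aducanumab against saline, edgeR likewise called 0 of the 34 genes at an adjusted p of 0.05, beside 0% of all genes. At an unadjusted p of 0.05, 1 gene of 34, Rnasek, was higher and 0 were lower, beside 4.68% of all genes. Rnasek was also the 1 gene whose Aducanumab libraries all lay above saline, beside 1.16% of all genes. The fold change was below 1 for 16 of 34 genes, beside 48.7% of all genes, and the median log2 fold change was 0.014 beside 0.0036. The 95% interval lay within 1.25-fold for 30 of 34. The other V0 genes lay between -0.029 and 0.18, the V1 genes between -0.07 and 0.042, the accessory genes between -0.05 and 0.053, the exchanger group between -0.088 and 0.024 and the cation group between -0.087 and 0.057.

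In ACLP-NT against Aducanumab, edgeR called 0 of 34 at an adjusted p of 0.05, beside 0% of all genes. At an unadjusted p of 0.05, Rnasek alone was lower and 0 genes were higher, beside 3.24% of all genes. Its groups did not overlap, beside 0.644% of all genes in that direction. The fold change was below 1 for 20 of 34, beside 52.4% of all genes. The median log2 fold change was -0.0097 beside -0.0065, and the interval lay within 1.25-fold for 29 of 34.

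Rnasek encodes ribonuclease kappa, a small membrane protein found in the V0 sector. It had 16.8, 14.1, 18.2 and 17.0 CPM in saline 18, 19, 32 and 38, then 38.7, 20.2, 20.4 and 33.6 CPM in Aducanumab 24, 50, 56 and 58. In ACLP-NT 17, 27, 49, 53 and 55 it had 13.2, 15.5, 16.5, 16.1 and 18.4 CPM. All 4 Aducanumab libraries lay above the other 9, and 24 and 58 lay well above 50 and 56. The log2 fold change was 0.77 (SE 0.187, edgeR adjusted p = 0.833) between Aducanumab and saline and -0.82 (SE 0.176, edgeR adjusted p = 1) between ACLP-NT and Aducanumab. ACLP-NT against saline gave -0.05 (SE 0.177). DESeq2 called Rnasek in both comparisons with Aducanumab (adjusted p = 0.0393 and 0.0223), 1 of 18 and 1 of 3 genes it called there. Over all alternatives the adjusted p of Rnasek ran from 0.0393 to 1 in the first comparison and from 0.0223 to 1 in the second.

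Rnasek shares its place with another gene, and the pair has to be read together. In the deposited table Rnasek lies at chr11:70128950-70130668 on the minus strand, and Gm21988, annotated there as a transcript subject to nonsense-mediated decay, lies at chr11:70126032-70130656 on the same strand. In the GENCODE M21 annotation (GRCm38), 599 of the 611 bases of the main Rnasek transcript, Rnasek-201, are also exons of Gm21988, which leaves 12 bases of its own. Over all annotated transcripts Rnasek has 885 exonic bases, of which 286 are its own, and Gm21988 has 1692, of which 1093 are its own. The whole Rnasek coding sequence of 297 bases (98 codons before the stop, chr11:70238329-70239733 in GRCm38, in 3 exons) was found letter for letter in the transcript Gm21988-202. It is printed to show a shared stretch, with the start and stop codons in capitals. A fragment that lies wholly within it cannot be assigned to 1 of the genes.
Rnasek-201 coding sequence: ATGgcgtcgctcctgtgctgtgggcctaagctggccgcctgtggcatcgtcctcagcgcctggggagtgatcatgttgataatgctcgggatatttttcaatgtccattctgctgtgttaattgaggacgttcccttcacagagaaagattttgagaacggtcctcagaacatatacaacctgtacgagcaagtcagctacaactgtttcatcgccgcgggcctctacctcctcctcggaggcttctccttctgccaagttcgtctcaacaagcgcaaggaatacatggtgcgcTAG

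Gm21988 lay the other way from Rnasek. It had 64.5, 51.4, 58.5 and 60.7 CPM in saline, 32.5, 49.2, 59.4 and 39.9 CPM in Aducanumab 24, 50, 56 and 58, and 64.3, 57.0, 54.4, 60.5 and 60.8 CPM in ACLP-NT. The Aducanumab libraries with the most Rnasek, 24 and 58, had the least Gm21988, and Aducanumab 50 was also below every saline and ACLP-NT library. Its log2 fold change against saline was -0.38 (SE 0.139, edgeR adjusted p = 1). The sum of both genes was 81.3, 65.5, 76.7 and 77.7 CPM in saline, 71.2, 69.4, 79.8 and 73.5 CPM in Aducanumab, and 77.5, 72.5, 70.9, 76.6 and 79.2 CPM in ACLP-NT. These groups overlapped, and the summed feature gave -0.035 (SE 0.0658, 95% interval -0.18 to 0.11) for Aducanumab against saline and 0.036 (SE 0.0625) for ACLP-NT against Aducanumab. Rnasek took 20.6%, 21.5%, 23.7% and 21.8% of the sum in saline, 54.4%, 29.1%, 25.6% and 45.7% in Aducanumab, and 17.0%, 21.4%, 23.3%, 21.0% and 23.2% in ACLP-NT. This share was higher in all 4 Aducanumab libraries than in the other 9. The sum and the share were examined after the values of Rnasek were seen, so they are given as a description. The sources used here do not say how reads shared by the 2 genes were assigned, and its part in the result was not tested.

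**Figure D4:**
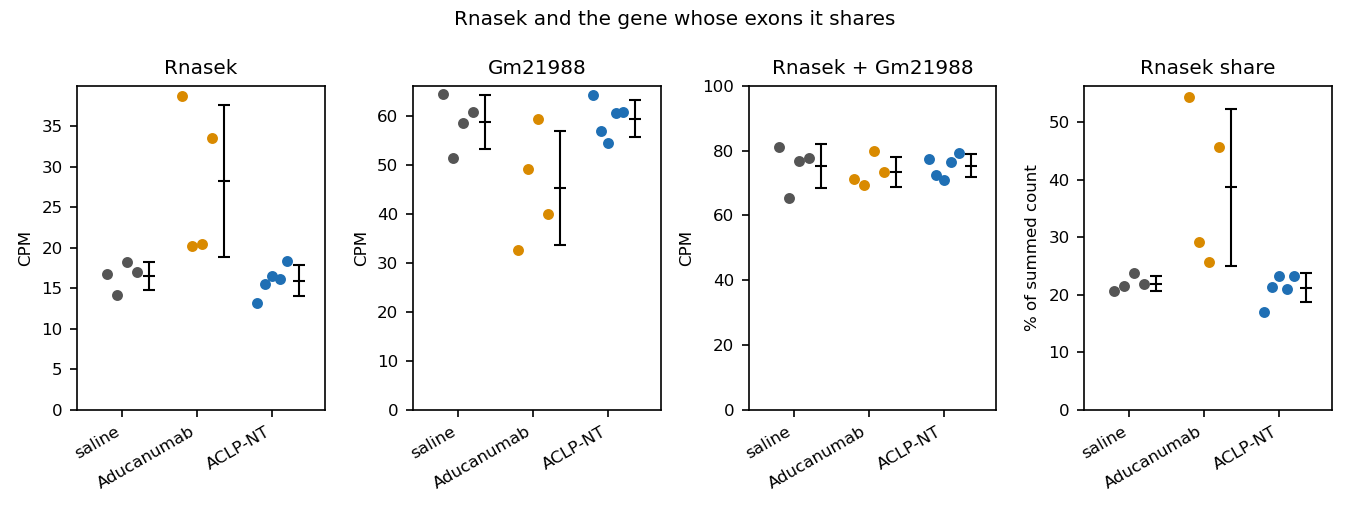
Rnasek, the overlapping Gm21988 and their sum in CPM, and the Rnasek share of the summed count in percent, 1 point per library with the mean and SD (bars) of each group; all axes start at 0. Rnasek and its share are higher in Aducanumab (25.6% to 54.4%) than in saline (20.6% to 23.7%) and ACLP-NT (17.0% to 23.3%), Gm21988 is lower in 3 of the 4 Aducanumab libraries than in any saline or ACLP-NT library, and the sums overlap.

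Across the 13 libraries, log2 CPM had a median SD of 0.0805 over the 32 genes with a mean of at least 10 CPM. Their SD ran from 0.0419 to 0.452. The median SD was 0.102 over the 10680 tested genes with such a mean, a set not matched further for level. Several of the 34 genes varied together with markers of neurons. The level of 12 neuron markers, none of them among the 34 genes, was lowest in Aducanumab 58 and saline 38. Both libraries also had the highest summed choroid plexus markers, 8119 and 7813 CPM, with ACLP-NT 53 close at 7769 CPM. Aducanumab 56, with the highest summed neuron markers, had 6911 CPM. The part of such tissue differences in the relations below was not tested. At an adjusted p of 0.05 over 68 relations (34 genes against neuron and microglia markers, permutation tests), 14 genes correlated with it by Pearson's r, 13 positively and 1 negatively. By Spearman's rho, 9 of the 14 also passed. An r above 0.7 was reached by 13 of 34 genes, beside 4.02% of all tested genes. That share is not matched for level, since 31.8% of the tested genes have a mean count under 100. With the microglia marker level 0 of 34 passed, with a median r of 0.0844. After centring on group means 1 gene, Tpcn2, passed there (r = 0.713, adjusted permutation p = 0.0262), beside r = 0.661 without centring. Its uncentred rho was 0.555 (adjusted permutation p = 0.19). Without the 2 libraries farthest from the median microglia level its uncentred r was 0.371 (adjusted permutation p = 0.58). Both measures in each relation come from the same library and are shares of its total.

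The 13 positive genes came from 4 of the 5 classes, a distribution that was not tested. They were 6 of 9 V1 genes, 4 of 9 V0 genes, 2 of 6 accessory genes (Dmxl2 and Wdr7) and 1 of 5 in the exchanger group (Clcn6). Atp6v0e2 led with r = 0.940 (permutation p = 1e-05, the smallest the resamples can give, adjusted p = 0.00068) and rho = 0.956 (permutation p = 1e-05, adjusted p = 0.00068). Atp6v1g2 had r = 0.925 and rho = 0.852 (adjusted permutation p = 0.00068 and 0.00657), and Atp6v1b2 r = 0.903 and rho = 0.901 (adjusted permutation p = 0.00068 and 0.00204). These 3 also passed without the 2 libraries farthest from the median marker level, at r = 0.929, 0.863 and 0.809. The other 11 did not pass at that smaller number of libraries, where r kept its sign in each. Among them r was 0.805 for Atp6v0c (adjusted permutation p = 0.0517), 0.781 for Atp6v0a1 and 0.705 for Atp6v1a, and the lowest positive value was 0.472 for Clcn6. After centring on group means all 14 passed with the neuron markers. That test pooled the libraries of all groups and kept the 2 farthest from the median marker level. It therefore cannot tell whether the relation holds within each group or rests on those 2 libraries.

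Some paralogues had r of opposite sign, a difference that was not tested. Atp6v0a1 had r = 0.872 and Atp6v0a2 r = -0.649, Atp6v0e2 0.940 and Atp6v0e -0.612, Atp6v1g2 0.925 and Atp6v1g1 -0.147, and Dmxl2 0.727 and Dmxl1 -0.365. In these 4 pairs the paralogue with the higher FPKM had the positive value. The other 2 pairs had r of the same sign, with Atp6v0d1 at 0.864 and Atp6v0d2 at 0.332, and Tpcn1 at -0.796 and Tpcn2 at -0.354. Without the 2 farthest libraries r was -0.131 for Atp6v0a2. Of the 14 genes that passed, Tpcn1 was the negative one (adjusted permutation p = 0.0146), with rho = -0.566 (adjusted permutation p = 0.189). Its level was 69.2 CPM in Aducanumab 58 and 51.2 to 60.5 CPM in the other 12 libraries, and without the 2 farthest libraries r was -0.528.

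**Figure D5:**
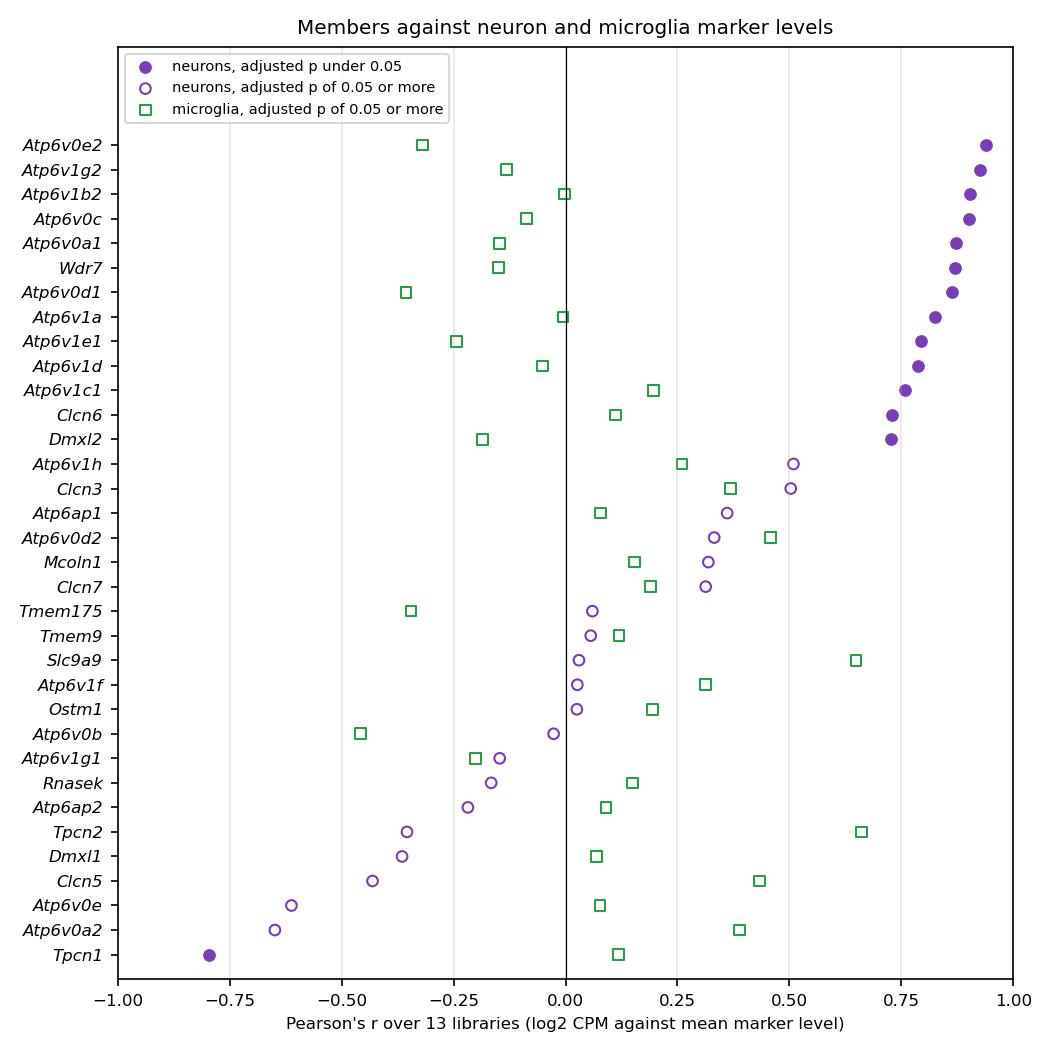
Pearson's r over 13 libraries between the log2 CPM of each of the 34 genes (rows) and the mean level of neuron markers (circles) or microglia markers (squares), filled where the adjusted p is under 0.05. Filled circles run from Atp6v0e2 at 0.940 to Dmxl2 at 0.727, with Tpcn1 at -0.796, and no square is filled.

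The other genes of lysosomal acidification and lysosomal signalling were examined from fixed lists, and edgeR called 0 in each at an adjusted p of 0.05 in all 3 comparisons. Of 15 further V-ATPase subunits and assembly factors, 13 were tested. In ACLP-NT against saline, 1 was lower at an unadjusted p of 0.05, Tcirg1, the a3 subunit of osteoclast and macrophage lysosomes. It had 28.5 ± 4.32 CPM against 34.4 ± 2.7 CPM (log2 fold change -0.27, SE 0.109, adjusted p = 0.792). In Aducanumab Tcirg1 had 29.4 ± 3.82 CPM (log2 fold change -0.23, SE 0.116). The kidney isoform Atp6v0a4 was near the limit of detection, at 0.489 ± 0.12 CPM in Aducanumab and 0.222 ± 0.109 CPM in saline (log2 fold change 1.13, SE 0.428, adjusted p = 1). Atp6ap1l had 0.809 ± 0.372 CPM in ACLP-NT against 1.66 ± 1.08 CPM in saline, with an adjusted p of 0.876. The assembly factor Ccdc115 had 13.4 ± 1.35 CPM in ACLP-NT against 14.7 ± 0.694 CPM in Aducanumab (log2 fold change -0.13, SE 0.0797).

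Of 19 other endolysosomal ion transporters, 17 were tested. Mfsd8, the lysosomal membrane protein CLN7 with chloride channel activity, had 22.1 ± 0.549 CPM in Aducanumab, below all libraries of saline (24.1 ± 0.807 CPM) and of ACLP-NT (25.2 ± 1.47 CPM). The log2 fold change was -0.13 (SE 0.0581, adjusted p = 1) against saline and 0.19 (SE 0.0553, edgeR adjusted p = 1) for ACLP-NT against Aducanumab. Mfsd8 was named for its small unadjusted p within the list. The share of all genes whose groups do not overlap in that direction is not given here. The calcium channel gene Mcoln3 was nearly absent, at 0.433 ± 0.336 CPM in ACLP-NT, 0.372 ± 0.466 CPM in Aducanumab and 0.0495 ± 0.099 CPM in saline. The exchanger gene Slc9a5 had 20.1 ± 1.84 CPM in ACLP-NT against 24.7 ± 9.76 CPM in saline, and the zinc transporter Tmem163 had 6.96 ± 1.6 CPM in ACLP-NT against 9.29 ± 2.59 CPM in Aducanumab, with adjusted p of 0.891 and 1. Without saline 19 the log2 fold change of Slc9a5 turned from -0.30 to 0.015.

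The lysosomal platform of the growth regulator mTORC1 reads the V-ATPase through the Ragulator complex, and 18 of 18 of its genes were tested. None had an unadjusted p under 0.05 in any of the 3 comparisons. The Ragulator subunit Lamtor4 had 17.2 ± 1.44 CPM in ACLP-NT, 17.4 ± 1.4 CPM in Aducanumab and 15.9 ± 1.12 CPM in saline, and the GTPase gene Rragc had 60.4 ± 3.39, 60.5 ± 3.41 and 64.1 ± 3.34 CPM. Between ACLP-NT and Aducanumab, the log2 fold change of Lamtor3 was 0.11 (SE 0.068). That of the GTPase gene Rheb was 0.067 (SE 0.0476). The PIKfyve complex makes the lipid that opens TRPML1 and the TPC channels. Its 3 genes had log2 fold changes between -0.12 (Vac14) and 0.087 (Fig4) in ACLP-NT against saline and between -0.067 and 0.077 (Pikfyve) in Aducanumab against saline.

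Lysosomal hydrolases and membrane proteins, which work in and around the acidified lumen, lay lower in ACLP-NT more often than not. Of 34 tested, 29 were below saline in ACLP-NT with a median log2 fold change of -0.12, beside -0.019 for the 34 pump and channel genes, and 10 had an unadjusted p under 0.05, all of them lower. Over all 22065 tested genes 50.6% were below saline, and 756 were lower at that p. The protease gene Ctsb had 637 ± 64.1 CPM in ACLP-NT and 746 ± 53.5 CPM in saline (log2 fold change -0.23, SE 0.0723, adjusted p = 0.746). The mannosidase gene Man2b1 had 93.0 ± 12.6 against 113 ± 6.14 CPM (-0.28, SE 0.0965, adjusted p = 0.751). In Aducanumab 24 of 34 were below saline, with a median of -0.059, beside 48.7% of all tested genes below saline. At an unadjusted p of 0.05, 1 of the 34 was lower, beside 577 of all 22065 tested genes. There Ctsb had -0.17 (SE 0.0764), and Cd68, a lysosomal protein of phagocytes, had -0.38 (SE 0.177). Between the treatments Ctsl and Neu1 had -0.18 (SE 0.134) and -0.088 (SE 0.0426). Some of these genes, such as Ctsb, Ctsd and Ctss, are also on the microglia lists. The summed microglia markers had a median of 1613 CPM in ACLP-NT, 1554 CPM in Aducanumab and 1882 CPM in saline, with overlapping ranges. The part of the microglia marker level in these values was not tested. The difference between the 2 lists was not tested.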

How the data were processed

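Polyadenylated RNA of 13 mouse hippocampi was sequenced. The authors deposited 1 table with raw counts per gene, without normalization, and FPKM, which the authors scaled to gene length and library total per the file headers. Per the submitters' processing notes the tools were HISAT2 2.0.4, cutadapt 1.9, edgeR and StringTie 1.3.4d. For the genome build, annotation, counting program and strand setting, nothing is stated by the sources used here.

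Counts were filtered (filterByExpr) and TMM-scaled, and all 13 libraries entered a single quasi-likelihood fit in edgeR 4.0.16 (R 4.3.3). Its two-sided p-values were adjusted by Benjamini-Hochberg over 22065 genes, with a threshold of 0.05. CPM are TMM-scaled. The SE of a fold change is its absolute log2 value divided by the square root of F. Ratios used FPKM, and marker levels are mean centred log2 CPM (prior count 2). Correlations used 100000 resamples (numpy 2.4.6, scipy 1.17.1). The fit and the permutation tests were tested on simulated data. DESeq2 1.42.0, limma 3.58.1 on FPKM, other filters and scalings, marker covariates and each library left out were alternatives. The p-values measure the spread between these samples alone.

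The members, the lists and the tests were chosen with earlier results of these data known. All 34 members were named, and from each wider list the 2 genes whose unadjusted p was smallest per comparison. Of the listed genes, 1 each of the pump, transporter, hydrolase and microglia lists was not matched by symbol and is not analysed here. Of 10 members, no promoter was matched.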

Additional observations from a re-analysis of the deposited data

Results flagged for a closer look

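In 5 of 105 groups of libraries examined (4.76%), 1 library lay far from the others of its group, where chance alone flags about 1 in 20 groups. Atp6v1a had 560 CPM in ACLP-NT 53, below the 596 to 608 CPM of the other ACLP-NT libraries, and Atp6v1c1 had 183 CPM in the same library, below 206 to 209 CPM. Atp6v1b2 had 507 CPM in Aducanumab 58 where the other Aducanumab libraries had 594 to 606 CPM, and Wdr7 had 178 CPM there against 216 to 221 CPM. Aducanumab 58 also had the lowest neuron marker level of the 13 libraries. Atp6ap1 had 322 CPM in saline 18, above the 297 to 300 CPM of the other saline libraries.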

How the results depend on the processing

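Between settings, edgeR and limma called 0 of the 34 genes in each comparison, also with each library left out. DESeq2 called 1 (Rnasek) in Aducanumab against saline and 1 (Rnasek) in ACLP-NT against Aducanumab. Over all genes DESeq2 called 9 in ACLP-NT against saline, 18 in Aducanumab against saline and 3 in ACLP-NT against Aducanumab, where edgeR called 0. Leaving out 1 library at a time gave 0 to 1 genes over all genes in each comparison (1 without saline 32 in both comparisons with saline, and 1 without ACLP-NT 49 in both comparisons with Aducanumab). Summing Rnasek with Gm21988, an alternative chosen after seeing the data, turned its direction to -0.0354 in Aducanumab against saline and 0.0363 in ACLP-NT against Aducanumab, because the counts of both genes enter. In ACLP-NT against saline, Tpcn2 turned to 0.0911 with the microglia covariate and Slc9a5 to 0.0153 without saline 19 (range -0.416 to 0.0153 with 1 library left out at a time), and the cause was not tested. The count of genes that correlate with marker levels was 14 with all libraries and 16 after centring on group means. It was 10 on log2(FPKM + 0.1) and 3 without the 2 farthest libraries. In that last setting fewer libraries enter, and r was smaller in size for each of the 14 genes. The median log2 fold change of the 34 genes stayed between -0.042 and 0.0187 over all settings and comparisons. Atp6v0d2, with at most 43 counts in a library, is limited by depth. No paired analysis was possible because the groups share no replicate number.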
